A study of Homo sapiens with 6 samples.

Results

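The genes described here code for the regulators and core factors that choose splice sites in pre-mRNA: the SR proteins (symbols SRSF plus a number), the heterogeneous nuclear ribonucleoproteins (prefix HNRNP), the SF3A and SF3B subunits of the U2 snRNP, and U2AF1, U2AF2 and ZRSR2. They were chosen by symbol among protein-coding genes, pseudogenes left out, which gave 48 of the 29810 genes measured: 12 SR proteins, 24 hnRNPs, 9 SF3 subunits and 3 genes of the U2AF and ZRSR2 group. HNRNPUL2-BSCL2, a readthrough of HNRNPUL2 into its neighbour, and HNRNPA1P48, which GENCODE v29 lists as protein-coding in spite of its symbol, were kept by the same rule. The samples are the human acute myeloid leukaemia line Kasumi-1, an established line of immature myeloblasts, with 3 samples under I1 at 0.125 µM for 48 h and 3 control samples at the same time. The sources give I1 by code name alone, and the labels do not say what the control samples received. The comparison asks how transcript levels differ between I1 and control.

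Splicing removes introns from pre-mRNA. U2AF2 binds the pyrimidine-rich stretch near the end of an intron and U2AF1 the AG at its end, and together they recruit the U2 snRNP, whose SF3A and SF3B proteins settle on the branch point. SR proteins bind exons and mostly favour their inclusion, while many hnRNPs coat RNA and favour skipping, so the balance between both families sets which exons a transcript keeps. SRSF2, SF3B1, U2AF1 and ZRSR2 are recurrently mutated in myeloid neoplasms, which makes their level in a myeloid line of interest; these files hold expression values and no variants.

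Some of these genes have a copy annotated elsewhere in the hg38 build, and short reads from stretches without a difference cannot be assigned to 1 gene. The first 90 coding bases of 2 partner pairs are shown because the levels of these genes depend on how far the copies can be told apart. They were read 5′ to 3′ from the hg38 genome along GENCODE v29 coding sequences, and capitals mark the bases that differ within a pair.
U2AF1 (chromosome 21, minus strand, first coding base 43107494): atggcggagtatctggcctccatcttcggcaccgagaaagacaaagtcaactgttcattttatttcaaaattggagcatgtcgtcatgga
U2AF1L5 (chromosome 21, minus strand, first coding base 6499172): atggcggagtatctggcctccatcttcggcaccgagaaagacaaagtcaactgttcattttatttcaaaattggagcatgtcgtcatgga
SRSF2 (chromosome 17, minus strand, first coding base 76737160): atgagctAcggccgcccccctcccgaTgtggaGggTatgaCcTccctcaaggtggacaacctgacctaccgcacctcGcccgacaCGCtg
SRSF8 (chromosome 11, plus strand, first coding base 95067227): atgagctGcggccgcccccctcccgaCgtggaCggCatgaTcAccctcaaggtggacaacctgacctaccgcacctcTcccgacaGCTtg

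U2AF1 and U2AF1L5 were identical over all 720 coding bases, so no read from the coding sequence alone separates them. Whether U2AF1L5 is a true second gene was not tested. SRSF8, an intronless copy of SRSF2, has drifted further, with 554 of 654 aligned bases identical, or 84.7%, which leaves differences for reads to fall on. The low level of U2AF1 given here is therefore uncertain, as are those of HNRNPA1L2 and HNRNPA1P48, which are copies of HNRNPA1.

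Levels are FPKM as the authors deposited them. For 95.9% of genes with annotated exons, values were whole read counts divided by the length of all exons and by the library total. HNRNPA2B1, HNRNPUL2, HNRNPA1P48 and HNRNPA1L2 were not among these, so no reads are given for them. The library totals, recovered from the steps between low values, were 16391000 to 16948000 under I1 and 17331000 to 18204000 in control. A single read in a kilobase was worth 0.0549 to 0.0610 FPKM. Markers fitted the labelled line: all 8 myeloblast markers had 1 FPKM or more in 3 or more libraries. Their summed level was 9310 to 11100 FPKM under I1 and 10100 to 14600 FPKM in control. Most of it was MPO, with means of 6710 FPKM under I1 and 8050 FPKM in control, while CD33 averaged 11.9 and 13.5 FPKM. Defining T cell, erythroid and fibroblast markers were at or near 0, with sums of at most 1.40 FPKM in any library. The fibroblast sum rests on COL1A1, since only 1 of the 5 markers of that list was in the table. The epithelial list summed to 26.7 to 31.3 FPKM under I1 and 23.2 to 27.6 FPKM in control, nearly all of it EPCAM, with KRT8 at 0, and the B cell list to 4.74 to 7.02 FPKM under I1 and 6.06 to 10.6 FPKM in control. The monocyte list summed to 4.01 to 5.84 FPKM under I1 and 4.45 to 7.28 FPKM in control, mostly FCGR1A, and the endothelial list to 1.24 to 2.52 FPKM under I1 and 1.91 to 2.95 FPKM in control, mostly PECAM1. Control replicate 1 stood apart from the other 5 libraries. It lay at -43.8 on the first principal component, which held 52.1% of the variance, against 2.89 to 19.8 for the I1 libraries and -2.9 and 5.4 for the other controls. Over 11899 genes with a known GC content, the log2 fold change was lower the higher the GC content (Spearman -0.763, and -0.568 without control replicate 1), so values without that library or after a GC correction are given beside many of the results.

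The levels themselves spanned several orders of magnitude, as the plot of levels by library shows. Each level also depends on the exon length annotated for the gene. HNRNPA1, a general splicing repressor and RNA export factor, was the most abundant member with a mean of 501 FPKM over the 6 libraries, rank 57 of all genes measured. HNRNPF, which binds runs of G, followed at 182 FPKM, and SF3B5, the smallest SF3B subunit, at 168 FPKM. The highest SR protein was SRSF6 at 74.9 FPKM, and the large U2AF subunit gene U2AF2 stood at 76.3 FPKM. The 44 tested members had a median level of 45.2 FPKM, against 7.78 FPKM for the 9858 tested protein-coding genes.

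**Figure D1:**
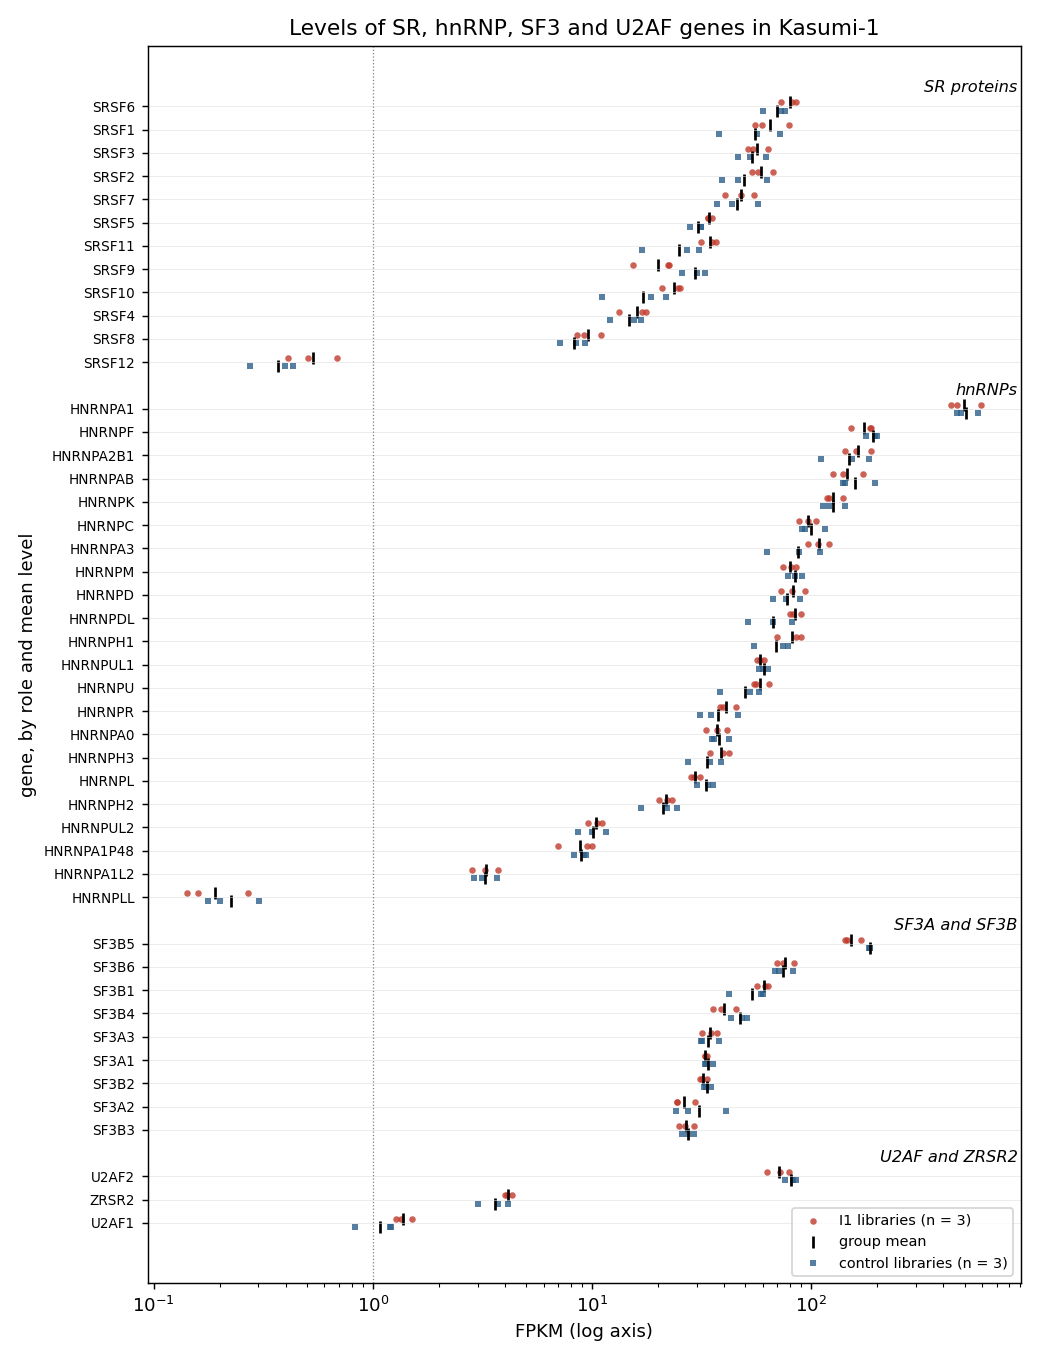
FPKM (log axis) of 46 of the 48 genes in each of the 3 I1 libraries (circles) and 3 control libraries (squares), grouped by role and ordered by mean level, with ticks at the group means; the dotted line marks 1 FPKM, and the 2 genes left out, HNRNPCL1 and HNRNPUL2-BSCL2, were at 0 in most libraries. The spread between genes, with HNRNPA1 near 501 FPKM and HNRNPLL near 0.208 FPKM, is far wider than the distance between I1 and control for any 1 gene.

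As a share of all FPKM in a library, the 48 genes held 1.08 ± 0.0701% under I1 and 1.03 ± 0.0943% in control (SD, n = 3 each). The hnRNPs made up most of it, with 0.713 ± 0.0509% under I1 and 0.673 ± 0.0616% in control. SR proteins held 0.163 ± 0.0141% under I1 and 0.141 ± 0.0265% in control. SF3 subunits held 0.176 ± 0.0120% under I1 and 0.183 ± 0.00623% in control. Each of these differences was smaller than the larger of its 2 SDs.

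For the comparison of I1 with control, 44 of the 48 genes passed the filter, which was 1 FPKM or more in 3 or more libraries: 11 SR proteins, 21 hnRNPs, 9 SF3 subunits and all 3 of U2AF1, U2AF2 and ZRSR2. None of these genes passed the test. Limma with Benjamini-Hochberg adjustment over 11913 genes called 0 of the 44 at an adjusted p under 0.05, where it called 4 genes in all, a background of 0.0336%. The smallest adjusted p of a member was 0.467. Fitting the replicate number as a block made it 0.140, and that fit called 6 genes in all (0.0504%). The labels name no separate cultures within a group, so these p-values measure only the spread between the samples, which may be technical. In bulk RNA, a lower level per cell and a smaller share of cells expressing a gene cannot be told apart. Fold changes are on the scale of log2(FPKM + 1), which understates those of low genes.

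At an unadjusted p under 0.05, limma listed 3 of 44 members (6.82%), against 9.57% of all tested genes. SRSF11 was higher under I1 (2.27% of members, background 6.8%), and SRSF9 and SF3B5 were lower (4.55%, background 2.77%). With the replicate block it listed 11 of 44 (25.0%), against 27.1% of all genes. The block listed 8 higher members (18.2%, background 17.1%), SRSF2, SRSF6, SRSF10, SRSF11, HNRNPA3, HNRNPDL, HNRNPH1 and HNRNPH3, and 3 lower ones (6.82%, background 9.96%), SRSF9, SF3B4 and SF3B5. With the block and the GC correction together it listed 18 of 44 (40.9%), against 16.2% of all genes. Of these, 4 were higher (9.09%, background 7.54%), HNRNPDL, SRSF2, SRSF10 and SRSF11, and 14 were lower (31.8%, background 8.63%). The lower ones were HNRNPA0, HNRNPA1, HNRNPC, HNRNPF, HNRNPH2, HNRNPK, HNRNPL, SF3B1, SF3B4, SF3B5, SF3B6, SRSF3, SRSF7 and SRSF9. None was called in that fit, where the smallest limma adjusted p of a member was 0.233. The split of 1 higher and 2 lower in the fit without block or correction changed with other settings. It became 2 higher (4.55%, background 5.72%) and 1 lower (2.27%, background 5.01%) under quantile normalization. After the GC correction alone it was 0 and 2 (4.55% in all, background 4.99%). The count of 3 became 6 without control replicate 2 (13.6%, background 17.5%). It was 1 (2.27%) without control replicate 1 (background 6.34%), control replicate 3 (9.85%), I1 replicate 1 (6.31%) or I1 replicate 3 (4.02%).

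Groups that did not overlap in any library were found for 5 of 44 members (11.4%), against a background of 21.6%. SRSF11, SRSF5 and U2AF1 lay higher in every I1 library (6.82%, background 12.9%), and SRSF9 and SF3B5 lower (4.55%, background 8.74%). After the GC correction 0 were higher (background 5.15%) and 4 lower (9.09%, background 5.57%). With 1 library fewer to overlap, the count was 14 (31.8%) without control replicate 2 or without I1 replicate 1, where the background was 40.3% and 37.0%. It was 9 (20.5%, background 30.5%) without I1 replicate 2 and 8 (18.2%, background 33.3%) without control replicate 3. Members higher in 3 of 3 same-numbered pairs numbered 19 (43.2%, background 32.1%), and those lower in 3 of 3 pairs 11 (25.0%, background 25.8%). A log2 fold change above 0 was found for 27 of 44 (61.4%, background 54.5%). The median log2 fold change of the 44 members was 0.055, beside 0.034 over all tested genes, and it was -0.053 after the GC correction and -0.0051 without control replicate 1.

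**Figure D2:**
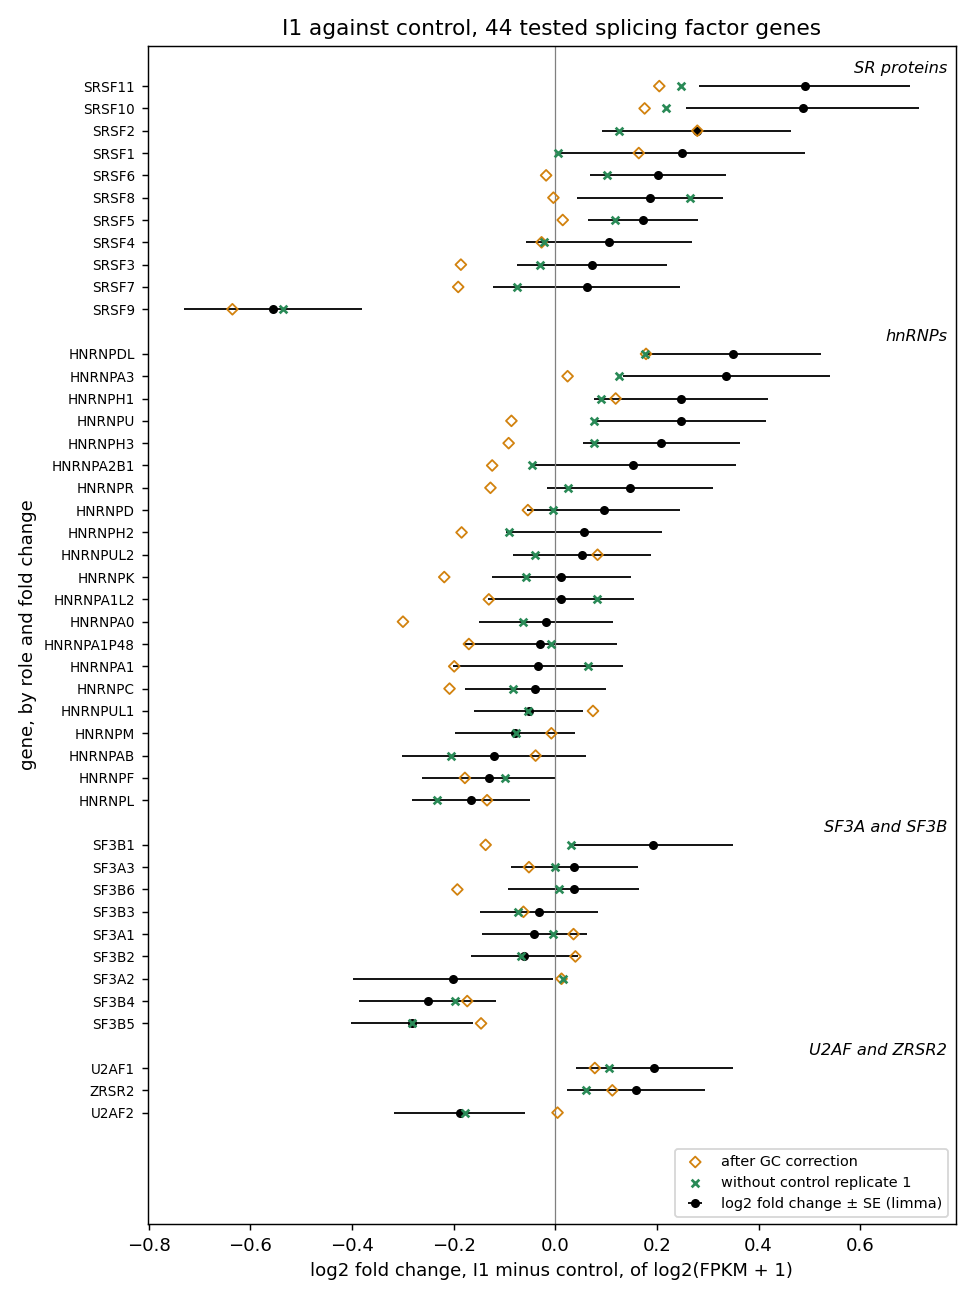
Log2 fold change of I1 minus control for the 44 tested genes (black points with standard errors from limma), grouped by role, with the values after GC correction (open diamonds) and without control replicate 1 (crosses). SR proteins apart from SRSF9 sit right of 0 before correction, 5 of the 11 after it, and no gene had an adjusted p below 0.467.

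SR proteins carry RNA-binding domains and a tail of arginine-serine repeats whose phosphorylation controls their activity. Of the 11 tested, 10 had a log2 fold change above 0, with a median of 0.19 and medians of 0.26, 0.092 and 0.15 in the pairs of replicates 1, 2 and 3. After the GC correction the median was -0.0036 with 5 of 11 above 0, and without control replicate 1 it was 0.10 with 7 of 11 above 0. Control replicate 1 was the lowest of the 6 libraries for 9 of these 11 genes (81.8%), against 40.2% of all tested genes. The part of that library and of GC content in the shift was not tested beyond these values.

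SRSF11 (chromosome 1, 70205682 to 70253052, plus strand), an SR protein that associates with U2AF2, had 31.5, 35.3 and 36.6 FPKM under I1, against 17.0, 30.7 and 27.1 FPKM in control. All I1 libraries were above all controls, and control replicate 1 was far below the other 2 controls. The log2 fold change was 0.49 with a standard error of 0.208 (limma adjusted p = 0.467), 0.25 without control replicate 1 and 0.20 after the GC correction. SRSF10 (chromosome 1, 23964804 to 23980927, minus strand), which represses splicing once dephosphorylated, for example after heat shock, had 20.7, 24.7 and 25.2 FPKM under I1, against 11.0, 21.7 and 18.5 FPKM in control. Its groups overlapped, since control replicate 2 was above I1 replicate 1. Its log2 fold change was 0.49 ± 0.229 (SE, adjusted p = 0.467 by limma), 0.22 without control replicate 1 and 0.18 after the GC correction. Both genes have GC-poor transcripts, 41.0% for SRSF11 and 40.3% for SRSF10.

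SRSF9 (chromosome 12, 120461668 to 120469793, minus strand), a small SR protein related to SRSF1, was the only SR gene with a log2 fold change below 0. It had 15.3, 22.3 and 22.4 FPKM under I1, against 30.2, 25.6 and 32.9 FPKM in control. Every I1 library was below every control, and I1 replicate 1 was the lowest of all. The log2 fold change was -0.56 ± 0.174 (SE), the largest in size among the members, with a limma adjusted p of 0.467, or 0.140 with the block. Its value was -0.54 without control replicate 1 and -0.64 after the GC correction, and it ranged from -0.65 to -0.38 when single libraries were left out. Exons of GATC on the opposite strand cover 1729 bases, or 46.2%, of its exon length. GATC, a subunit of a mitochondrial amidotransferase, averaged 3.44 FPKM under I1 and 2.84 FPKM in control. The use of strand in the counting is not stated, so reads of SRSF9 and GATC may not be separable.

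SRSF1, the founding SR protein and a proto-oncogene product, had 55.2, 79.4 and 59.7 FPKM under I1, against 37.9, 72.1 and 56.4 FPKM in control. The groups overlapped, with replicate 2 highest in both. The log2 fold change of SRSF1 was 0.25 ± 0.241 (SE), and it was 0.0049 without control replicate 1. Exons of another gene annotated on the same strand, with no level in these data, cover 56.6% of the exon length of SRSF1. SRSF2, which acts in both constitutive and alternative splicing, had 53.8, 67.1 and 56.9 FPKM under I1, against 39.0, 62.8 and 46.4 FPKM in control. Control replicate 2 was above I1 replicates 1 and 3, and the log2 fold change was 0.28 ± 0.185 (SE, adjusted p = 0.501 by limma). It was 0.12 without control replicate 1, 0.46 without control replicate 2 and 0.28 after the GC correction. MFSD11 exons on the opposite strand cover 36.7% of the exon length of SRSF2. SRSF6 had 73.1, 81.7 and 85.4 FPKM under I1, against 60.2, 76.1 and 72.6 FPKM in control. Its groups overlapped through I1 replicate 1, and the log2 fold change of 0.20 ± 0.134 (SE) was -0.018 after the GC correction.

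SRSF8, the intronless copy, had 11.0, 8.57 and 9.17 FPKM under I1, against 9.31, 8.44 and 7.12 FPKM in control, with overlapping groups and a log2 fold change of 0.19 ± 0.144 (SE), or -0.0036 after the GC correction. SRSF2 stood 4.91, 7.83 and 6.20 times above SRSF8 in the I1 libraries and 4.19, 7.45 and 6.52 times above it in control. These ratios overlapped between the groups. SRSF5 had 33.7, 33.9 and 35.1 FPKM under I1, against 28.0, 31.5 and 31.4 FPKM in control. All I1 libraries of SRSF5 were above all controls by a small margin, with a log2 fold change of 0.17 ± 0.109 (SE), or 0.015 after the GC correction. SRSF3, SRSF4 and SRSF7 lay between 0.062 and 0.11 in log2 fold change. SRSF12 was under the filter, with 31 to 51 reads under I1 and 22 to 34 reads in control.

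**Figure D3:**
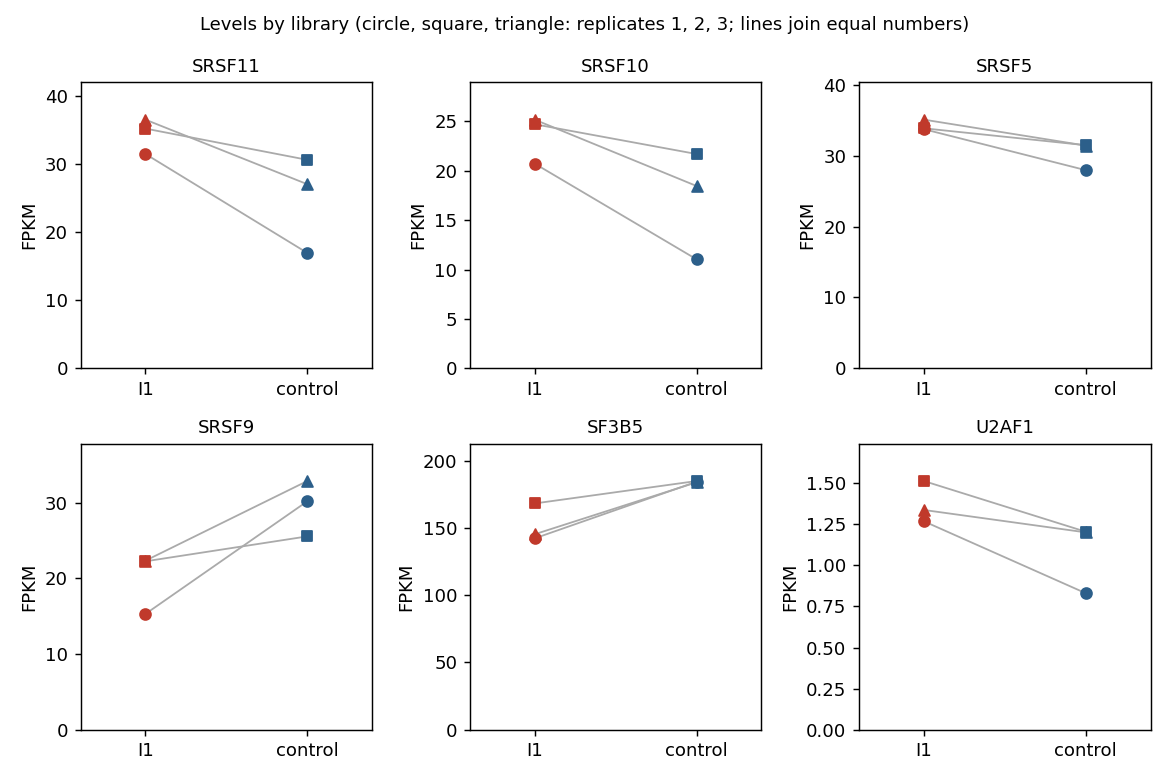
FPKM of 6 genes in each library, I1 on the left and control on the right of each panel, with grey lines joining libraries of the same replicate number (circle 1, square 2, triangle 3). SRSF9 and SF3B5 are lower in every I1 library and SRSF11, SRSF5 and U2AF1 higher, while SRSF10 overlaps; the circle of control is the lowest point for SRSF11, SRSF10, SRSF5 and U2AF1.

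The hnRNPs package nascent transcripts and take part in splicing, export and stability. The 21 tested hnRNPs were split around 0: 12 had a log2 fold change above 0, and the median was 0.012. In the fit without block or GC correction none reached an unadjusted p of 0.05 by limma or had groups that did not overlap. With the GC correction alone HNRNPA0 reached it, at -0.30 (limma unadjusted p = 0.0449, adjusted p = 0.967), against -0.018 without correction. After the GC correction 5 of 21 were above 0, with a median of -0.12, and without control replicate 1 it was 8 of 21, with a median of -0.040.

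Before the GC correction, the log2 fold changes of the abundant genes HNRNPA1, HNRNPF and HNRNPC were smaller in size than their standard errors. After it they were -0.20, -0.18 and -0.21, and none of them was called. HNRNPA1 (chromosome 12, 54280193 to 54287088, plus strand) had 593, 460 and 435 FPKM under I1, against 575, 479 and 461 FPKM in control. Replicate 1 was the highest in both groups, and the log2 fold change was -0.033 ± 0.167 (SE). HNRNPF had 186, 185 and 152 FPKM under I1, against 199, 195 and 178 FPKM in control, overlapping through I1 replicates 1 and 2, with a log2 fold change of -0.13 ± 0.132 (SE). HNRNPC, which binds runs of uridine and was among the first hnRNPs described, had 96.4, 105 and 87.9 FPKM under I1, against 93.1, 115 and 90.3 FPKM in control. Its log2 fold change was -0.039 ± 0.139 (SE), with replicate 2 highest in both groups. HNRNPCL1, the only HNRNPC-like gene matched here, had 0 reads in every library but control replicate 2, where it had 1. Relative to HNRNPA1, HNRNPA2B1, a close paralog, stood at 0.241, 0.409 and 0.367 under I1 and 0.192, 0.382 and 0.333 in control.

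HNRNPDL and HNRNPA3 had the largest positive log2 fold changes of the family. HNRNPDL, a relative of the AU-rich element binding protein HNRNPD, had 80.1, 89.4 and 82.3 FPKM under I1, against 51.4, 81.8 and 67.0 FPKM in control. The groups overlapped, since control replicate 2 was above I1 replicate 1, and control replicate 1 was the lowest. The log2 fold change was 0.35 ± 0.173 (SE, limma adjusted p = 0.467), and 0.18 both after the GC correction and without control replicate 1. HNRNPA3, a relative of HNRNPA1 and HNRNPA2B1, had 96.4, 120 and 107 FPKM under I1, against 63.0, 110 and 88.2 FPKM in control. Overlapping groups gave a log2 fold change of 0.34 ± 0.204 (SE), which was 0.13 without control replicate 1 and 0.024 after the GC correction.

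HNRNPL, which binds CA-rich RNA, had the most negative value of the family. Its levels were 28.1, 31.2 and 29.1 FPKM under I1, against 30.2, 35.8 and 33.8 FPKM in control. I1 replicate 2 was above control replicate 1, and the log2 fold change was -0.17 ± 0.116 (SE). It was -0.23 without control replicate 1 and -0.13 after the GC correction. HNRNPA1L2 had 3.73, 2.82 and 3.26 FPKM under I1, against 3.67, 3.14 and 2.89 FPKM in control, with a log2 fold change of 0.011 ± 0.143 (SE). HNRNPA1P48 averaged 8.82 ± 1.60 FPKM under I1 and 8.94 ± 0.596 FPKM in control (SD, n = 3 each).

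HNRNPH1 and HNRNPH2, close paralogs that bind G-rich RNA, kept different levels: HNRNPH1 was 3.03, 3.90 and 4.46 times as high as HNRNPH2 in the I1 libraries and 3.26, 3.20 and 3.40 times in control. These ratios overlapped between the groups. The remaining tested hnRNPs, among them HNRNPK, HNRNPM, HNRNPD, HNRNPR and HNRNPU, had log2 fold changes from -0.12 for HNRNPAB to 0.25 for HNRNPH1 and HNRNPU. Without control replicate 1 the values of HNRNPH1 and HNRNPU were 0.090 and 0.077. HNRNPLL, a regulator of exon choice in activated lymphocytes, was under the filter at 14 to 26 reads under I1 and 19 to 31 reads in control. HNRNPUL2-BSCL2 had 0 to 2 reads under I1 and 0 to 3 reads in control. On the same strand, exons of HNRNPUL2 cover 59.8% and those of BSCL2 40.2% of its exon length. How reads in shared exons were counted is not stated, so the level of the readthrough is uncertain. Its exons in turn cover 44.1% of the exon length of HNRNPUL2.

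SF3A and SF3B are the protein complexes that anchor the U2 snRNP to the branch point. Of the 9 subunit genes, 3 had a log2 fold change above 0, and their median was -0.041, or -0.063 after the GC correction and -0.0049 without control replicate 1. These genes are richer in GC than the other groups, with a median of 53.6%, against 43.5% for the SR proteins and 44.2% for the hnRNPs.

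SF3B5 (chromosome 6, 144094881 to 144095573, minus strand), a gene of a single exon, had 142, 168 and 145 FPKM under I1, against 184, 185 and 184 FPKM in control. Every I1 library was below every control, and the 3 controls lay almost on top of each other. The log2 fold change was -0.28 ± 0.119 (SE, limma adjusted p = 0.467, or 0.141 with the block), and -0.15 after the GC correction. SF3B6, another SF3B subunit, had 74.3, 83.2 and 70.1 FPKM under I1, against 70.9, 82.6 and 68.5 FPKM in control. Equal replicate numbers were nearly level, and the log2 fold change was 0.036 ± 0.128 (SE).

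SF3B1 (chromosome 2, 197389784 to 197435091, minus strand), the large scaffold subunit and the target of several splicing inhibitors, had 56.8, 63.7 and 61.8 FPKM under I1, against 42.1, 60.0 and 58.8 FPKM in control. I1 replicate 1 was below 2 of the 3 controls, and control replicate 1 was the lowest library. The log2 fold change was 0.19 ± 0.157 (SE, limma adjusted p = 0.553), 0.031 without control replicate 1 and -0.14 after the GC correction. SF3B4 had 38.6, 45.4 and 35.5 FPKM under I1, against 51.1, 48.3 and 43.0 FPKM in control. Only I1 replicate 2 reached into the control range, and the log2 fold change was -0.25 ± 0.134 (SE, limma adjusted p = 0.467). SF3A2 had 29.4, 24.5 and 24.5 FPKM under I1, against 41.0, 24.2 and 27.4 FPKM in control. Its log2 fold change of -0.20 ± 0.197 (SE) rested on control replicate 1 and was 0.015 without it. The other SF3 subunits, SF3A1, SF3A3, SF3B2 and SF3B3, had log2 fold changes from -0.061 to 0.037.

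U2AF2, U2AF1 and ZRSR2 recognise the downstream end of introns, ZRSR2 mainly that of the rare minor-class introns. U2AF2 had 62.6, 79.3 and 72.2 FPKM under I1, against 82.3, 85.3 and 75.9 FPKM in control. I1 replicate 2 was above control replicate 3, and the log2 fold change of -0.19 ± 0.128 (SE) was 0.0046 after the GC correction. ZRSR2 had 3.99, 4.32 and 4.08 FPKM under I1, against 3.02, 4.11 and 3.73 FPKM in control, overlapping through control replicate 2, with a log2 fold change of 0.16 ± 0.136 (SE), or 0.061 without control replicate 1.

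U2AF1 had 1.27, 1.51 and 1.34 FPKM under I1, against 0.831, 1.20 and 1.20 FPKM in control. All I1 libraries were above all controls, and the log2 fold change was 0.20 ± 0.155 (SE, limma adjusted p = 0.546), or 0.11 without control replicate 1. FPKM divides by the annotated exon length, which is 11112 bases for U2AF1 and 4115 bases for U2AF2. By reads, U2AF1 had 231, 285 and 247 under I1 and 168, 232 and 236 in control. U2AF2 had 4224, 5528 and 4940 reads under I1 and 6166, 6081 and 5526 reads in control. In FPKM, U2AF1 stood far below its partner. U2AF2 was 49.4, 52.4 and 54.0 times as high under I1 and 99.1, 70.8 and 63.2 times in control. These ratios did not overlap between the groups, and the largest was that of control replicate 1. They were compared after their values were seen and no test was run on them. GC content differed between the 2 genes, with 61.3% for U2AF2 and 45.9% for U2AF1. After the GC correction their log2 fold changes were 0.0046 for U2AF2 and 0.078 for U2AF1. U2AF1L5, whose coding sequence printed above is the same as that of U2AF1, was listed at 0.318, 0.318 and 0.287 FPKM under I1 and 0.203, 0.358 and 0.356 FPKM in control, from 53 to 60 reads and 41 to 70 reads. How the counting treated reads that match both genes is not stated, so the level of U2AF1 is uncertain.

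GC content moved with the fold changes of the members as it did over all genes, which the plot of fold change against GC content shows. Across the 44 members, which share the same 6 libraries, the Spearman correlation of GC content and log2 fold change was -0.669. For the 31 members below the median GC content of all tested genes (48.7%), the median log2 fold change was 0.15, with 25 above 0. The 13 members at or above it had a median of -0.080, with 2 above 0. After the correction these medians were -0.092 and 0.0046. SRSF9, at 47.1% GC, stayed at -0.64 after the correction, which left every member with a limma adjusted p of at least 0.967.

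**Figure D4:**
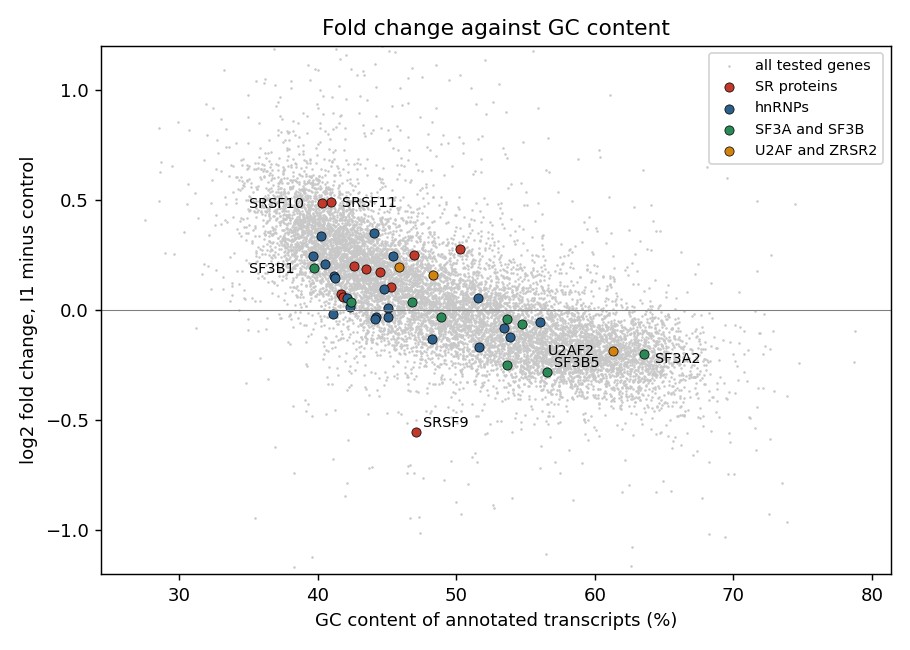
Log2 fold change (I1 minus control) of every tested gene with a known GC content (grey, 11899 genes, of which 32 lie outside the plotted range of ±1.2) against the GC content of its transcripts in percent, with the 44 splicing factor genes coloured by role. The cloud slopes down from GC-poor to GC-rich genes (Spearman -0.763); the members lie along it, and SRSF9 lies below it.

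Annotated transcripts, which the choice by symbol did not use, were also counted by role. GENCODE v29 annotates at least 1 transcript subject to nonsense-mediated decay, the surveillance that destroys transcripts with an early stop, for all 11 tested SR proteins, for 12 of 21 hnRNPs (57.1%) and for 3 of 9 SF3 subunits (33.3%). Over the members this is 28 of 44 (63.6%), beside 45.3% of the tested protein-coding genes. SR proteins and many hnRNPs are known to limit their own level through such transcripts, by including a poison exon or retaining an intron. The deposited values are per gene, so these isoforms were not analysed here. A transcript with a retained intron was annotated for 65.9% of the members and 59.4% of the tested protein-coding genes.

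Genes of the rest of the splicing machinery were read in the same fit from 9 lists, with 141 tested genes outside the 44. None of the 141 was called by limma, 12 were higher (8.51%, background 6.8%) and 4 lower (2.84%, background 2.77%) at an unadjusted p under 0.05, and their median log2 fold change was 0.077, or -0.019 after the GC correction. The list of kinases that act on SR proteins gave a median of 0.23 for 8 tested genes, with 6 above 0, and -0.056 after the correction. PRPF4B, a kinase of the precatalytic spliceosome, averaged 22.3 ± 1.60 FPKM under I1 and 15.4 ± 4.67 FPKM in control, and SRPK1, which phosphorylates SR proteins in the cytoplasm, 26.7 ± 2.07 FPKM under I1 and 22.0 ± 2.47 FPKM in control (SD, n = 3 each).

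Proteins of the U4/U6.U5 tri-snRNP had a median of -0.12 over 16 tested genes with 3 above 0, the most negative of the 9 lists before the GC correction, and -0.083 after it. Among them SNRNP200, the helicase that unwinds U4 from U6, averaged 59.4 ± 3.45 FPKM under I1 and 63.5 ± 0.672 FPKM in control. In the Sm and Lsm list (14 tested, median 0.063, or -0.13 after the correction, then the most negative of the 9), SNRPB, a core Sm protein, averaged 87.7 ± 9.23 FPKM under I1 and 110 ± 9.53 FPKM in control (limma adjusted p = 0.467). In the minor spliceosome list (9 tested, median 0.072), ZCRB1, a component of the U11/U12 snRNP, averaged 16.9 ± 1.52 FPKM under I1 and 12.5 ± 1.98 FPKM in control (limma adjusted p = 0.467). The medians of the remaining lists were 0.20 for 38 SR-related and other RNA-binding regulators, 0.18 for 6 U1 snRNP proteins, 0.13 for 14 other U2 and A complex proteins, 0.11 for 23 PRPF19 complex and catalytic-step factors and 0.0048 for 15 exon junction and decay factors. In the same order, the medians after the GC correction were 0.068, 0.082, 0.012, -0.056 and 0.018, and the minor spliceosome list had -0.00065. The 2 most abundant genes of the SR-related list were level between the groups. PTBP1 averaged 112 ± 5.02 FPKM under I1 and 112 ± 5.60 FPKM in control. NONO averaged 135 ± 14.0 FPKM under I1 and 135 ± 11.5 FPKM in control. Those of the other lists had log2 fold changes of -0.13 for SNRPC and -0.18 for SNRNP70 (U1), and 0.03 for SF1 and -0.28 for PUF60 (U2 and A complex). PRPF19 and SRRM2 (catalytic-step list) had -0.26 and 0.0, and SMG5 and EIF4A3 (exon junction list) -0.22 and -0.24.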

How the data were processed

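RNA of 6 Kasumi-1 samples, 3 with I1 and 3 controls, was made into strand-specific poly(A) libraries, per the labels' protocols. Trimmomatic, HISAT2, Cufflinks, HTSeq and the build hg38 are named, without roles, in the submitters' processing notes; not given in the sources used here are versions, annotation and whether counting used strand. Expression came as 1 FPKM table that the authors deposited; its own name speaks of other cell lines, but its 6 columns match the sample titles. Columns not used numbered 0. GENCODE v29 gave symbols, exon lengths and GC content for 29703 of 29810 identifiers. With these lengths 95.9% of them had whole read numbers in all libraries (tolerance 0.05 reads), which gave the reads and library totals; an interval on reads covers counting error only.

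Log2(FPKM + 1) values entered limma 3.58.1 (R 4.3.3; tables made with Python 3.11.15) with trend estimation, for genes of at least 1 FPKM in at least 3 libraries, I1 minus control, 2-sided, adjusted over all; the fit was tested on simulated data. The members and gene lists were chosen with earlier results of these data known. Values per library are given for the 2 most abundant members of each role, the 6 largest positive and 6 largest negative fold changes, SRSF2, SF3B1, U2AF1, ZRSR2, near-identical pairs and members under the filter; of other lists, the 2 genes of highest FPKM were computed and some printed. SRSF5, the HNRNPH1 and HNRNPA2B1 ratios and U2AF1L5 were added after their values were seen. GC correction subtracted a lowess trend (span 0.3) from each library. Same-numbered samples deviated together from their group means (correlations 0.476, 0.457 and 0.412), so the replicate number was also fitted as a block. The sample titles give numbers but no link between an I1 and a control sample, so this pairing was inferred from these data. The main fit ignored the pairing, and standard errors and adjusted p-values are from that fit unless the block is named. With the block the standard error was 0.075 instead of 0.167 for HNRNPA1 and 0.139 instead of 0.155 for U2AF1. Other settings tried were pseudocounts, filters, scalings, array weights, the block and leaving out each library. Some sequences are not reported here.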

Additional observations from a re-analysis of the deposited data

How the results depend on the processing

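No member was called by limma under any setting run, from pseudocounts and filters to leaving out each library. Of all genes, 0 were called with a pseudocount of 0.1 or 0.5, no filter, a mean of at least 5 FPKM, the GC correction or protein-coding genes alone, 2 with quantile normalization, 1 with the replicate block and GC correction, 16 with array weights, 6 with the block alone, which changed no call of a member, and 0 to 2 with single libraries left out. Members at an unadjusted p under 0.05 numbered 11 with the block (25.0%, all genes 27.1%) and 18 with the block and GC correction (40.9%, all genes 16.2%). They numbered 8 with array weights (18.2%, all genes 20.5%) and 1 to 6 with a library left out (2.27% to 13.6%, all genes 4.02% to 17.5%). Non-overlapping members numbered 6 to 14 with a library left out (13.6% to 31.8%, all genes 25.7% to 40.3%), where fewer values can overlap. The median log2 fold change of the members was -0.053 after the GC correction, with or without the block, and -0.0051 (without control replicate 1) to 0.16 (without control replicate 2) with a library left out. Of all 44 members, 21 turned sign under GC correction. Among genes with values per library, signs turned for HNRNPA1L2 under median ratio scaling (-0.017), quantile normalization (-0.081) and GC correction (-0.13); for HNRNPA1 and HNRNPC under quantile normalization (0.054 and 0.0505) and array weights (0.047 and 0.038); and under GC correction, with or without the block, for SF3A2 (0.012), SF3B1 (-0.14), SF3B6 (-0.19), SRSF6 (-0.018), SRSF8 (-0.0036) and U2AF2 (0.0046). With a library left out, signs turned for SF3A2 (-0.35 to 0.015), HNRNPA1 (-0.17 to 0.064), HNRNPA1L2 (-0.066 to 0.088), HNRNPC (-0.10 to 0.068) and SF3B6 (-0.031 to 0.12). The cause was not tested. Depth limits SRSF12 and HNRNPLL, which rest on few reads.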

Other observations

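The table also lists 55 pseudogenes of these families, left out above, of which 51 had a read in some library and 10 passed the filter. Groups did not overlap for 4 of the 51, against 13.9% of all genes above 0. HNRNPA1P14, a processed pseudogene of HNRNPA1 (chromosome 9, 88410529 to 88411463, minus strand, hg38), was singled out after its values were seen. It had 8, 9 and 9 reads under I1, against 1, 1 and 1 read in control. Scaled for depth, I1 over control was 9.23 (exact 95% limits 2.83 and 47.7, for counting error alone). It lay under the filter, and with no filter its limma adjusted p was 0.306. HNRNPA1 itself, the parent gene, did not differ in that direction (593, 460 and 435 FPKM under I1, against 575, 479 and 461 FPKM in control). Whether these reads come from the pseudogene or from HNRNPA1 was not tested.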
